A study of Mus musculus with 10 samples.

Results

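The insulin-like growth factor (IGF) family of mouse lung was followed through its ligands Igf1 and Igf2, its receptors Igf1r and Igf2r, and the binding proteins Igfbp2, Igfbp3, Igfbp4, Igfbp5, Igfbp6 and Igfbp7. These genes were taken by the gene name of each array probe, or by the current symbol of that name, which gave 10 genes of 27670 and 19 probes of 41174. The compared groups were 5 p53-null and 5 wild-type mice, all male, on the C57BL/6J background, 8 weeks old, with lungs collected after 30 min of aerosolized saline. p53 is a transcription factor, the product of Trp53, and responds to DNA damage and other stress; the p53-null mice lack it. The labels do not name the null allele. Whole lung RNA of each mouse was hybridised to 1 single-colour array, so the replicates are separate animals. Per the file headers only 1 slide held both genotypes, so on the other slides slide and genotype cannot be told apart.

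IGF1 and IGF2 are small secreted hormones related to insulin. Both act through the receptor tyrosine kinase encoded by Igf1r, which signals through insulin receptor substrates to the PI3K, AKT and mTOR pathway and to the MAP kinase pathway. IGF2 is also bound by the mannose 6-phosphate receptor encoded by Igf2r, which takes it into lysosomes. The binding proteins IGFBP2 to IGFBP6 carry the ligands with high affinity and release them when cut by proteases, while IGFBP7 binds them weakly. p53 is known in human cells to induce IGFBP3 and to repress the promoter of IGF1R, and in lung the family is studied in alveolar growth, fibroblasts and fibrosis.

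Of the probe sequences in the array files, the 4 below lie in coding sequence and show what was measured at a ligand and at 3 of its carriers. They are 60 bases long, are written 5′ to 3′ in the sense of the mRNA, and have coordinates on mouse build mm7 as the files give them. Capitals mark cysteine codons (TGT and TGC) in the open reading frame, since disulphide bonds between cysteines fold these proteins; in Igfbp2 they mark the stop codon TAA instead. The Igf1 probe A_52_P536434 (chr10:87471884-87471943, plus strand) holds 4 cysteine codons of the mature hormone. The Igfbp2 probe A_51_P423308 (chr1:73093964-73094023, plus strand) covers the end of the protein. The Igfbp3 probe A_51_P228472 (chr11:7160474-7161483, minus strand) spans 1010 bases of the genome with 60 bases of sequence, so that at least 950 bases lie between its parts, and it encodes a basic stretch near the carboxyl end. The Igfbp4 probe A_51_P398971 (chr11:99157316-99157375, plus strand) also lies in the coding part.
Igf1: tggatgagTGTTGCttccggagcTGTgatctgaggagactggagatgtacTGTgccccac
Igfbp2: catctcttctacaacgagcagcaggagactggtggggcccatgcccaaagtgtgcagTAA
Igfbp3: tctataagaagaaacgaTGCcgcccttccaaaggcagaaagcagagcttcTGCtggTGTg
Igfbp4: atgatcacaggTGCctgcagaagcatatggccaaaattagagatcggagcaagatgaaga

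All levels are log2 intensity minus the array's 75th percentile, and each difference is the p53-null mean less the wild-type mean on that log2 scale, with its SE. limma was used throughout (n = 5 mice a group), and a gene was called at a Benjamini-Hochberg adjusted p under 0.05. Levels of different probes are not comparable, so each is read only between arrays. Between 71.4% and 84.0% of spots on an array were well above background, all 19 IGF family probes were so on all 10 arrays, and 0 of their spots were saturated. The number of arrays limits the precision. A Trp53 probe differed by -1.28 ± 0.16 (limma adjusted p = 0.00589), at -3.15 to -2.66 on p53-null arrays and at -1.67 to -1.43 on wild-type arrays 1 to 4. Wild-type array 5 lay between them at -2.22, and without it the difference was -1.41 ± 0.11 (limma adjusted p = 3.56e-04). A second Trp53 probe differed by 0.31 ± 0.28 (limma adjusted p = 0.504), at 0.13 to 0.65 on p53-null arrays, against -0.34 to 0.0063 on wild-type arrays 1 to 4 and 1.24 on wild-type array 5. Leaving that array out moved the second probe's difference to 0.59 ± 0.13 (limma adjusted p = 0.00851). Whether the library labelled wild-type array 5 matches its label cannot be told from these probes, so IGF family calls that it changes, and gene differences that it moves by over 1.5 times, are given with and without it. All 8 alveolar type 1 and 8 alveolar type 2 marker genes were among the genes tested, as the tissue label implies.

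No IGF family gene passed the test between p53-null and wild-type lung. By limma 0 of 10 were called, against 7.49% of the 21116 genes tested, and 2 of 10 (Igf1 and Igfbp6) had an unadjusted p under 0.05, against 27.6% of all genes. In 0 of 10 did the 5 p53-null values lie wholly apart from the 5 wild-type values, against 9.32% of all genes. In p53-null lung 4.59% of all genes were higher and 2.89% lower by the same test. Of the 10 differences 5 were positive and 5 negative. Their median was -0.039, against 0.050 over all genes tested, and their median size was 0.18, against 0.22. The widest differences among these 10 were those of Igf1 and Igfbp6, both negative, and neither passed the test.

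**Figure D1:**
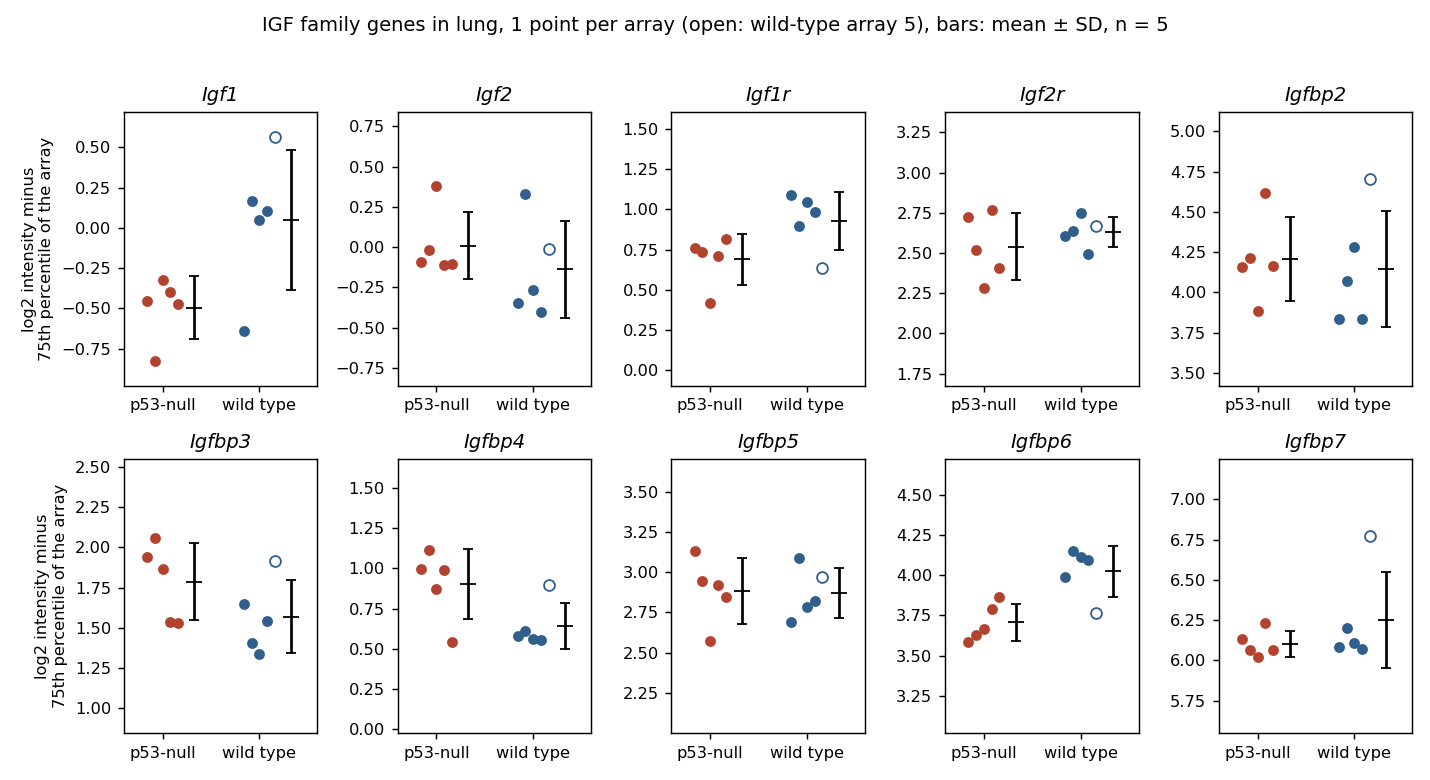
Level of the 10 IGF family genes (log2 intensity minus the 75th percentile of the array) on each p53-null array (left) and wild-type array (right), each gene on its own axis; bars show mean ± SD, n = 5. The groups overlap in all 10 genes, and wild-type array 5, drawn open, is the highest array for Igf1, Igfbp2 and Igfbp7.

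Igf1, the ligand that mediates much of growth hormone action, averaged -0.50 ± 0.19 in p53-null lung and 0.049 ± 0.43 in wild-type lung (SD, n = 5 each). On p53-null arrays 1 to 5 it was at -0.46, -0.83, -0.33, -0.40 and -0.47, against -0.64, 0.16, 0.047, 0.11 and 0.56 on wild-type arrays 1 to 5. The p53-null arrays lay below wild-type arrays 2 to 5, and wild-type array 1 lay among them. The difference of -0.54 ± 0.20 did not pass the test (limma adjusted p = 0.114), and its 95% interval ran from -0.99 to -0.10. Without wild-type array 1 Igf1 was called, at -0.72 (limma adjusted p = 0.0334, with 4.57% of all genes called), and with any other single array left out it was not, the adjusted p reaching 0.218.

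The low value of wild-type array 1 was seen at a second place in the transcript. The coding probe printed above, A_52_P536434, read -1.04 on wild-type array 1 and differed by -0.44 ± 0.20 (limma adjusted p = 0.183). The distance between the 2 probes varied by 0.22 over the 10 arrays, while the level at A_51_P147942 varied by 1.39. That probe was printed in 10 spots per array, whose SD was 0.036 to 0.11, so the spread between animals was wider than that between spots. The remaining Igf1 probe, A_52_P306327, differed by -0.49 ± 0.31 (limma adjusted p = 0.342) and did not follow the other two across arrays. It was printed in 1 spot per array and averaged -5.53 in p53-null lung and -5.04 in wild-type lung.

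Igf2, the ligand that is imprinted and abundant before birth, averaged 0.0095 ± 0.21 in p53-null lung and -0.14 ± 0.30 in wild-type lung (SD, n = 5 each). It was at -0.092, -0.020, 0.38, -0.11 and -0.11 on p53-null arrays 1 to 5, against -0.34, 0.33, -0.26, -0.40 and -0.011 on wild-type arrays 1 to 5. p53-null array 3 and wild-type array 2 stood above all others, so each group held 1 high array. The difference was 0.15 ± 0.16 (limma adjusted p = 0.587). It was 0.055 without p53-null array 3 and 0.26 without wild-type array 2, the ends of its range with single arrays left out. The second probe gave -0.067 ± 0.18 (limma adjusted p = 0.852). The same 2 arrays were the highest at that second probe, at -1.78 and -1.70. They also had the highest mean deviation of 8 adipocyte markers, at 0.76 for p53-null array 3 and 0.59 for wild-type array 2, and of 8 cardiac muscle markers, at 0.89 and 0.98. Not all of the 15 marker lists read went this way. Skeletal muscle and squamous epithelium markers were high on wild-type array 2, at 3.47 and 4.67, but not on p53-null array 3, at -0.85 and -1.19. The part of these tissues in the Igf2 values was not tested.

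Igf1r, the signalling receptor, had 4 probes, of which A_51_P474538 and A_51_P318365 followed each other across arrays. At A_51_P474538 it was at 0.76, 0.74, 0.42, 0.71 and 0.82 on p53-null arrays 1 to 5, against 1.09, 0.90, 1.05, 0.98 and 0.64 on wild-type arrays 1 to 5. All p53-null values lay below wild-type arrays 1 to 4, and wild-type array 5 lay among them. The difference was -0.24 ± 0.11 (limma adjusted p = 0.190). At A_51_P318365 it was -0.29 ± 0.096 (limma adjusted p = 0.0897). Neither probe passed the test. The others, A_52_P634111 and A_52_P668647, differed by -0.10 ± 0.096 and by 0.34 ± 0.20 (limma adjusted p = 0.533 and 0.300), so the sign at the last was opposite. These averaged -3.34 and -3.71 in p53-null lung, against -3.24 and -4.05 in wild-type lung. Wild-type array 2 read lowest at A_52_P668647, at -4.81, and without that array the difference there was 0.15. The files name A_51_P474538 and A_52_P634111 by clone names that map to Igf1r.

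Igf2r, the clearance receptor for IGF2, had 1 probe, at 2.73, 2.52, 2.28, 2.77 and 2.41 on p53-null arrays 1 to 5, against 2.60, 2.63, 2.75, 2.49 and 2.67 on wild-type arrays 1 to 5. The groups overlapped over most of their range. The difference was -0.089 ± 0.11 (limma adjusted p = 0.631), with a 95% interval from -0.33 to 0.15. With single arrays left out it ran from -0.15 without p53-null array 4 to -0.025 without p53-null array 3.

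Igfbp3, the main carrier of IGFs in blood and the member most often linked to p53, did not differ beyond the spread between animals. At A_52_P253179 it was at 1.94, 2.06, 1.87, 1.54 and 1.53 on p53-null arrays 1 to 5, against 1.65, 1.41, 1.34, 1.54 and 1.91 on wild-type arrays 1 to 5. p53-null arrays 3, 4 and 5 lay within the wild-type range, of which wild-type array 5 was the top. The difference was 0.22 ± 0.14 (limma adjusted p = 0.361), positive, with a 95% interval from -0.11 to 0.54. The junction probe printed above gave 0.057 ± 0.24 (limma adjusted p = 0.909). With each array left out in turn the difference stayed between 0.15 and 0.30 and was not called, the lowest adjusted p being 0.113 without wild-type array 5.

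Igfbp4, a carrier that mostly holds IGFs back from their receptor, was at 0.999, 1.11, 0.87, 0.99 and 0.54 on p53-null arrays 1 to 5, against 0.58, 0.61, 0.56, 0.55 and 0.89 on wild-type arrays 1 to 5. Wild-type arrays 1 to 4 lay within a narrow band, below 4 of the p53-null arrays, while p53-null array 5 and wild-type array 5 crossed over. The difference was 0.26 ± 0.12 (limma adjusted p = 0.186) at A_52_P257502 (chr11:99161059-99161118). The coding probe printed above gave 0.028 ± 0.11 (limma adjusted p = 0.905), so the 2 Igfbp4 probes differed in size. Igfbp3 and Igfbp4 both lie on chromosome 11, as does Trp53. Their probes A_52_P253179 and A_52_P257502 start at bases 7158599 and 99161059. Any part of that shared chromosome in their differences was not tested.

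Igfbp5, a carrier bound to extracellular matrix, was at 2.57 to 3.13 on p53-null arrays (median 2.92) and at 2.69 to 3.09 on wild-type arrays (median 2.82). The difference was 0.012 ± 0.12 (limma adjusted p = 0.962), and its second probe gave 0.32 ± 0.21 (limma adjusted p = 0.355). Igfbp2, the carrier that ends in the stop codon printed above, was at 3.89 to 4.61 on p53-null arrays (median 4.17), against 3.84 to 4.70 on wild-type arrays (median 4.07). Its difference was 0.061 ± 0.19 (limma adjusted p = 0.870). The sign of both differences turned with median scaling, though not with the other scalings tried, and when some single arrays were left out, so neither has a settled direction. Without wild-type array 5 they were 0.036 for Igfbp5 and 0.20 for Igfbp2.

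Igfbp6, the carrier that prefers IGF2 over IGF1, had the smallest p of the family. It was at 3.59, 3.63, 3.67, 3.79 and 3.86 on p53-null arrays 1 to 5, against 3.99, 4.15, 4.11, 4.09 and 3.77 on wild-type arrays 1 to 5. All p53-null values lay below wild-type arrays 1 to 4, and wild-type array 5 lay among them, as for Igf1r. The difference was -0.32 ± 0.096 (limma adjusted p = 0.0704), with a 95% interval from -0.53 to -0.10. Igfbp7, the weak binder also found in vessel walls, was at 6.13, 6.06, 6.02, 6.23 and 6.06 on p53-null arrays 1 to 5, against 6.09, 6.20, 6.11, 6.07 and 6.77 on wild-type arrays 1 to 5. Apart from wild-type array 5 the 9 values lay within a narrow band, and the difference was -0.15 ± 0.14 (limma adjusted p = 0.527) at chr5:77280659-77280718. Without wild-type array 5 it was -0.014 (limma adjusted p = 0.891).

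Wild-type array 5 moved the family more than any other single array did in the number of members called. It lay outside the range of the other 4 wild-type arrays in 7 of 10 genes, above it for Igf1, Igfbp2, Igfbp3, Igfbp4 and Igfbp7 and below it for Igf1r and Igfbp6. Without it 2 of 10 genes were called, both lower in p53-null lung, Igfbp6 at -0.38 (limma adjusted p = 0.00653) and Igf1r at -0.32 (limma adjusted p = 0.0304). The p53-null and wild-type values of these 2 genes then no longer overlapped. Over all genes 31.3% were called without that array, made up of 17.1% higher and 14.3% lower in p53-null lung, and 29.5% did not overlap. The family's share of 2 in 10 was thus no higher than the background. Array weights, which count less consistent arrays less, called the same 2 genes, against 30.8% of all genes. A trended robust variance model called Igfbp6 alone, against 10.7% of all genes, and so did the fit without wild-type array 5 and with the trend on probe GC content removed, against 22% of all genes.

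**Figure D2:**
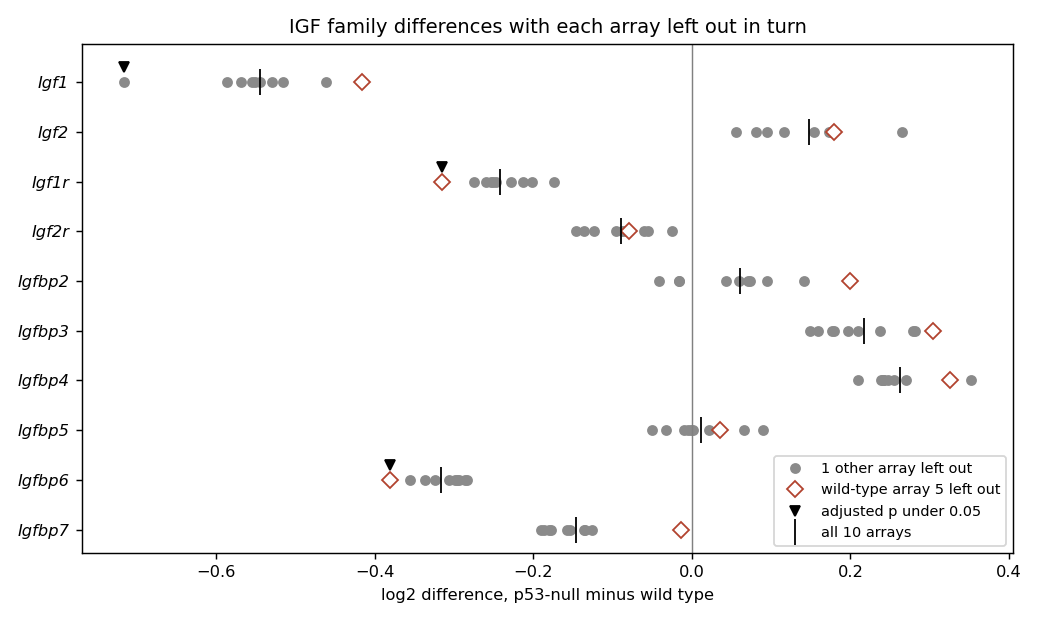
Log2 difference, p53-null minus wild type, of the 10 IGF family genes with all 10 arrays (vertical line) and with each array left out in turn (points; diamond: without wild-type array 5). Triangles mark an adjusted p under 0.05: Igf1 without wild-type array 1, and Igf1r and Igfbp6 without wild-type array 5.

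Counted by probe, 0 of 19 were called by limma, against 7.1% of 31599 probes tested, and 4 of 19 had an unadjusted p under 0.05, against 27.3%. In 0 of 19 were the groups apart, against 9.16% of all probes. Without wild-type array 5, 3 probes were called, 2 of Igf1r and that of Igfbp6, against 30.6% of all probes. For Igf2 and Igf1r the probes of a gene did not share a sign.

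**Figure D3:**
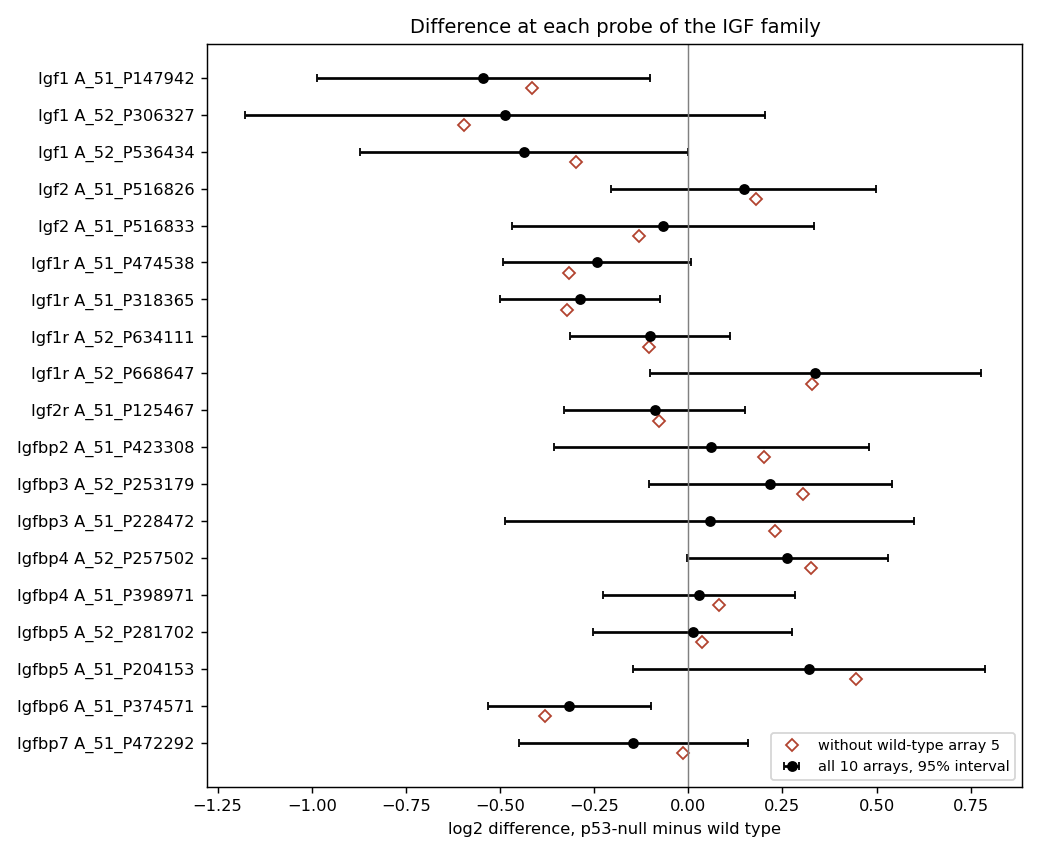
Log2 difference, p53-null minus wild type, at each of the 19 IGF family probes (points) with its 95% interval from limma, n = 5 per group; diamonds show the difference without wild-type array 5. The 3 Igf1 probes lie left of 0, and 1 of the 4 Igf1r probes lies right of it.

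Marker genes of 15 cell types were read in the same lungs, and 8 of the lists held a called gene. In a bulk sample fewer cells of a type and less RNA per cell cannot be told apart. Over all genes 4.59% were higher and 2.89% lower. Of 12 fibroblast markers 4 were lower in p53-null lung and 0 higher, among them the collagen genes Col3a1 (-0.94 ± 0.12, limma adjusted p = 0.00892) and Col1a2 (-0.82 ± 0.11, limma adjusted p = 0.0110). The mean deviation of the fibroblast list was -0.29 to -0.11 on p53-null arrays and 0.045 to 0.27 on wild-type arrays. Of 9 neutrophil markers 7 were higher, with list means of 0.21 to 1.38 on p53-null arrays and -1.11 to -0.47 on wild-type arrays. Of 8 B cell markers 7 were higher, with list means of 0.32 to 1.26 on p53-null arrays and -1.31 to -0.17 on wild-type arrays. Of 9 T and NK cell markers 5 were higher, with list means of 0.12 to 0.59 on p53-null arrays and -0.74 to -0.034 on wild-type arrays. Of 10 macrophage markers 2 were higher and 1 lower, and the list means overlapped, at -0.057 to 0.19 on p53-null arrays and -0.29 to 0.23 on wild-type arrays. Without wild-type array 5 the macrophage list had 4 higher and 1 lower, and over all genes 17.1% were then higher. Endothelial markers had 1 higher and 2 lower of 11, and airway and adipocyte markers 1 higher each. The 7 lists with 0 called by limma were smooth muscle, mesothelium, alveolar type 1, alveolar type 2, skeletal muscle, squamous epithelium and cardiac muscle, with 3 genes among them at an unadjusted p under 0.05. The part of these cells in the values of Igf1 and Igfbp6 was not tested.

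Genes that act with the family were read in 5 lists of 75 genes, of which 72 were tested. Among them 0 were higher and 4 lower in p53-null lung, 5.56% of those tested against 7.49% of all genes, and their median difference was -0.034. Without wild-type array 5 the count was 28, with 10 higher and 18 lower, 38.9% against 31.3% of all genes. The 4 called genes were Ccn5, Pappa, Mest and Cdkn1c, and each rested on 1 tested probe.

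Among further carriers, proteases and their inhibitors, 2 of 13 tested genes fell and 0 rose, and the median was -0.12. Of all genes tested 2.89% fell and 4.59% rose. Pappa encodes the protease that cuts IGFBP4 and so frees IGFs. It was at -3.29, -3.34, -3.10, -3.18 and -2.85 on p53-null arrays 1 to 5, against -2.61, -2.75, -2.22, -1.96 and -2.80 on wild-type arrays 1 to 5. The groups did not overlap, and the difference was -0.68 ± 0.17 (limma adjusted p = 0.0462). Ccn5, a secreted matrix protein with a domain like that of the IGF-binding proteins, differed by -0.61 ± 0.12 (limma adjusted p = 0.0245). With single arrays left out Ccn5 was called in 5 of 10 fits and Pappa in 1 of 10, the adjusted p reaching 0.0686 and 0.120. Of all genes 31.3% were called without wild-type array 5. With any other single array left out that share was 0.91% to 4.57%. Over these fits the difference ran from -0.66 to -0.52 for Ccn5 and from -0.77 to -0.56 for Pappa.

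Of 13 imprinted growth genes and Igf2 mRNA-binding proteins, 2 fell and 0 rose, against 2.89% and 4.59% of all genes, and the median was -0.30. Mest, a paternally expressed gene, differed by -0.66 ± 0.13 (limma adjusted p = 0.0260), and Cdkn1c, a maternally expressed cell-cycle inhibitor, by -0.33 ± 0.081 (limma adjusted p = 0.0431). With single arrays left out, Mest was called 3 and Cdkn1c 1 of 10 times, in fits that called 0.91% to 31.3% of all genes. The difference then ran from -0.77 to -0.60 for Mest and from -0.37 to -0.30 for Cdkn1c. Cdkn1c was at 1.80, 1.95, 1.75, 2.03 and 1.73 on p53-null arrays 1 to 5, against 2.14, 2.26, 2.25, 2.14 and 2.11 on wild-type arrays 1 to 5, without overlap.

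The remaining lists held no called gene by limma, against 7.49% of all genes tested. Of all genes tested 27.6% had an unadjusted p under 0.05. In receptor-proximal IGF and insulin signalling 0 of 17 were called (4 at an unadjusted p under 0.05, median 0.020), and the smallest p belonged to the adaptor Grb2 (0.24, limma adjusted p = 0.0865) and the exchange factor Sos2 (-0.59, limma adjusted p = 0.102). Among PI3K, AKT, mTOR and FOXO genes 0 of 21 were called (10 unadjusted, median -0.0027). Tsc2, which encodes an inhibitor of mTOR, differed by -0.31 ± 0.11 (limma adjusted p = 0.0960). In the growth hormone axis 0 of 8 were called (2 unadjusted, median -0.0055), with the feedback inhibitor Socs2 at -0.32 (limma adjusted p = 0.0886) and the transcription factor gene Stat5a at 0.46 (limma adjusted p = 0.124). Without wild-type array 5, 5 receptor-proximal genes were called higher and 3 lower, against 17.1% and 14.3% of all genes. PI3K, AKT, mTOR and FOXO genes then had 2 higher and 7 lower, and the growth hormone axis 1 higher and 1 lower.

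**Figure D4:**
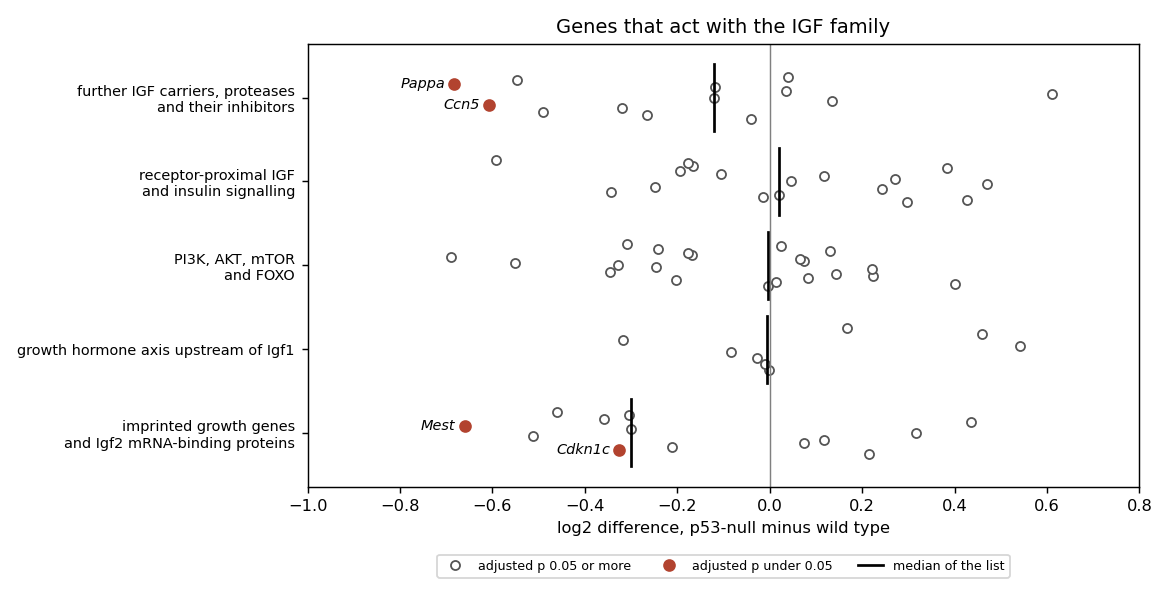
Log2 difference, p53-null minus wild type, of the 72 tested genes in 5 lists around the IGF family, 1 point per gene, with the median of each list as a vertical line. The called genes Pappa, Ccn5, Mest and Cdkn1c are filled and lie left of 0.

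Across the 10 arrays, after each genotype's mean was removed, the level of Igfbp3 was most like that of Nxpe3 (Pearson r = 0.968), Zfp870 (0.945) and Dsn1 (0.941) among 16221 genes compared. Igfbp6 was most like Nectin1 (0.966), Clock (0.965) and Mfap3l (0.965). The genes share all 10 arrays, wild-type array 5 among them, so these values are a description only.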

How the data were processed

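Total RNA of each lung was labelled with Cy3, per the labels' protocols. The submitters' processing notes name Agilent Feature Extraction 9.5 as the software. Per the file headers, the deposited intensity had its background subtracted and spatial trend removed on each array. The series' value table, also an intensity the authors deposited, equalled it (largest difference 0; column medians 250.0 to 452).

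Log2 intensities had the array's own 75th percentile of non-control spots subtracted. Outlier spots were left out and spots of a probe averaged. The probe with the highest mean stood for its gene. A RefSeq table, used for names only, gave current names to 22951 probes by accession, to 6659 by symbol and to 3109 by synonym, while 8455 kept the name in the file. A gene was tested if well above background on at least 5 arrays, with limma 3.58.1 in R 4.3.3 and Benjamini-Hochberg adjustment over all genes at 0.05.

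Members, lists and markers were chosen with earlier results of these data known. Every member was named, and from each list the called genes (up to 6), and for a list with no call its 2 genes of smallest p; likeness was the within-genotype Pearson r. The result of 1 gene named by this rule is not reported here. A marker list's value on an array is its genes' mean deviation from their mean over all arrays.

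Alternatives changed the background correction, the scaling, the filter, the probe standing for a gene, the variance model, the threshold, the arrays included, or a block (slide, slide number range and scan day from the file headers, and replicate number). The code was tested on simulated data for this comparison with 20606 genes: it recovered 26.9% of 67 genes changed 1.5-fold, 59.7% of 67 changed 2-fold and 89.4% of 66 changed 4-fold, with 8 false calls.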

Additional observations from a re-analysis of the deposited data

Results flagged for a closer look

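In 7 of 38 groups of 5 arrays, 1 array stood apart from the rest of its group by Dixon's test. Chance does this in about 1 group in 20. The 38 groups are probes read on the same arrays, some of them of 1 gene, so they are not independent. Wild-type array 5 was the array in 4 of the 7: Igfbp7 was at 6.77 there, with the nearest wild-type array at 6.20. Igfbp4 read 0.89 on it at A_52_P257502, with the nearest at 0.61, and -0.44 at A_51_P398971, with the nearest at -0.70. The junction probe of Igfbp3 read -2.77 on that array, with the nearest at -3.51. p53-null array 3 stood apart for Igf1r at A_51_P474538, at 0.42 with the nearest at 0.71, and for Igf2 at A_51_P516826, at 0.38 with the nearest at -0.020. Wild-type array 2 stood apart at the second Igf2 probe, at -1.70 with the nearest at -2.28.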

How the results depend on the processing

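The count of called members was 0 under every alternative except these: it was 1 with a trended robust variance model (Igfbp6, limma adjusted p = 0.0399), 2 with array weights (Igf1r and Igfbp6, adjusted p = 0.0282 and 0.00852), 1 with the probe GC trend removed in the absence of wild-type array 5 (Igfbp6, adjusted p = 0.00830) and 1 at an adjusted p under 0.1, and it ran from 0 to 2 with single arrays left out. Called probes ran from 0 to 3 with single arrays left out. With the replicate block 0 members were called and 26 genes in all. Same-numbered arrays correlated between -0.22 and 0.0011. The labels do not say whether the numbers pair the animals, and these correlations cannot tell. Only 1 slide held both genotypes, with p53-null array 2 and wild-type array 4. A fixed slide block thus compares 1 array of each genotype, and for the other arrays slide and genotype cannot be told apart. Igfbp2 turned negative with median scaling (-0.0097), with the GC trend removed (-0.13), when the 3 arrays with high skeletal muscle genes were left out (-0.080) and with GC removed but no wild-type array 5 (-0.10), and ran from -0.041 to 0.20 with single arrays left out. Igfbp5 turned negative with median scaling (-0.059), within the lower slide number range (-0.049), with scan day as a block (-0.0097), with GC removed (-0.023) and with GC removed but no wild-type array 5 (-0.042), and ran from -0.051 to 0.090 with single arrays left out. The scan day block is the same fit as leaving out wild-type array 3, the only array of its day. Igf2r turned positive, at 0.025, under the fixed slide block. The cause was not tested. Called genes ran from 0 to 4 for further carriers and proteases, 0 to 5 for imprinted genes, 0 to 9 for PI3K genes, 0 to 8 for receptor-proximal genes and 0 to 2 for the growth hormone axis, over alternatives chosen after seeing the data. The top of each range was reached both with array weights and without wild-type array 5, where 30.8% and 31.3% of all genes were called. The value table gave no separate result, since it equals the scanner signal.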
